A study of Mus musculus with 8 samples.

Results

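Acute-phase and innate defence genes encode secreted proteins and enzymes that tissues raise during infection and injury. The 8 genes considered were Steap4, Lcn2, Saa3, Ptx3, C3, Hp, Cp and Sod2. Each was followed through every probe set to which the platform annotation gives exactly 1 symbol, that of the gene. By this rule 7 of the 8 genes were found, on 19 of the 45037 probe sets tested, among 18193 genes with such a probe set. C3, the central complement component, had none in the annotation used and is not analysed here. Cp had 8 probe sets, of which 6 share 1 target sequence record, and Sod2 had 4, of which 3 share 1 record. Steap4 and Ptx3 had 2 each, and Lcn2, Saa3 and Hp had 1 each.

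The arrays came from mouse embryonic fibroblasts, strain C57BL/6, that lack Stat5 and had received a mutant STAT5 from a retrovirus. In the EA mutant, 2 E residues of the binding domain are changed to A, per the labels, and in the YF mutant the phosphorylated tyrosine is lost (Y694F). Cells of each mutant were left unstimulated or were given growth hormone for 120 minutes, which makes 4 groups of 2 arrays, called biological duplicates in the series text. All groups share the Stat5-null background, and no array of unmodified cells, or of null cells carrying wild-type STAT5, was analysed here. How many infected populations stand behind each mutant is not given in the sources used here, so the mutant and the cell population that carries it cannot be told apart.

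The acute-phase response is driven mainly by interleukin-6, interleukin-1 and tumour necrosis factor, acting through STAT3, C/EBP and NF-kB factors. The liver makes most of the circulating proteins, but fibroblasts and other stromal cells also make several of them, such as PTX3, SAA3 and lipocalin 2. Many of these proteins limit what microbes can use: lipocalin 2 captures the siderophores with which bacteria collect iron, haptoglobin binds free haemoglobin and ceruloplasmin oxidises iron. Growth hormone acts through its receptor and JAK2, which phosphorylates STAT5 on the tyrosine that YF lacks.

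The upstream sequences of Steap4, Lcn2 and Sod2 are shown. These 3 genes were chosen with their values known, because they differed in how hormone and mutant separated their arrays. Whether any match bears on a response was not tested. Each sequence is the window of 250 bases before the RefSeq start (GRCm38.p6), printed 5′ to 3′ on the strand of the gene. Capitals mark matches to 3 motifs searched on both strands. The motifs were a STAT5-type motif (TTCNNNGAA), the NF-kB consensus, and a C/EBP-type motif (TTGCNNAA). They occur in 7.02%, 7.25% and 9.56% of all 32851 such windows. Steap4 lies at chr5:7960222-7960471, plus strand. Lcn2 lies at chr2:32387740-32387989, minus strand. Sod2 lies at chr17:13007589-13007838, plus strand.

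Steap4: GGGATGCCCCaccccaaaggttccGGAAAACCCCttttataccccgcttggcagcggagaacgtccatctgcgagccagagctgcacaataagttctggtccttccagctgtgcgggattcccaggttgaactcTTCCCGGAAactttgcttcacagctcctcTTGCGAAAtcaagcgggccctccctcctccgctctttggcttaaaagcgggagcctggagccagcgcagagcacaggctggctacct
Lcn2: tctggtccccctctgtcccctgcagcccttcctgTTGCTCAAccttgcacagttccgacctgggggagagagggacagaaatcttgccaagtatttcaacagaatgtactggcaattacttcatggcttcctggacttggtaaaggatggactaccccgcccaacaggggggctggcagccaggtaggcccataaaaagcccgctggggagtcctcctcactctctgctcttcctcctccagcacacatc
Sod2: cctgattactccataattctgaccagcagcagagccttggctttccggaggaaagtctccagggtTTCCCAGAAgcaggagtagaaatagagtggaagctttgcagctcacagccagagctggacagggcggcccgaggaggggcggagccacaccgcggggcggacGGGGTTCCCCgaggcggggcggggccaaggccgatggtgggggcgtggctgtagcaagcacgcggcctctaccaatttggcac

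The Steap4 window holds 1 STAT5-type match, TTCCCGGAA, whose first base lies 116 bases before the start, with 2 NF-kB consensus matches and 1 C/EBP-type match. The Sod2 window holds 1 STAT5-type match, TTCCCAGAA, 185 bases before the start, and 1 NF-kB consensus match. The Lcn2 window holds 1 C/EBP-type match and neither of the others. Windows were on file for 7 of the 8 genes, and those of Saa3, Ptx3, C3 and 1 of the 2 of Cp also hold 1 C/EBP-type match each and no other. A match is a run of letters, not a measured binding site.

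Arrays of the same group gave Pearson r of 0.996 to 0.998. The YF and EA arrays lay apart on the first principal component (69.9% of the variance). On the second (12.6%) YF with hormone replicate 1 stood apart, at -55.8 against -3.28 for its partner. All 8 fibroblast markers were above a log2 value of 4, a bound below which 55.0% of probe sets lie and under which the scale of a value is unknown. Of the markers of other cells, 0 of 5 for neutrophils, 0 of 6 for hepatocytes, 2 of 8 for macrophages and leukocytes (Cd68 and Csf1r) and 1 of 6 for epithelium (Krt19) lay above that bound. Of the 19 probe sets followed, 9, from 5 genes, had a group mean above it, and 10 had none. The 10 were the only probe sets of Saa3 and Hp, 6 of Cp, and 1 each of Steap4 and Sod2.

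**Figure D1:**
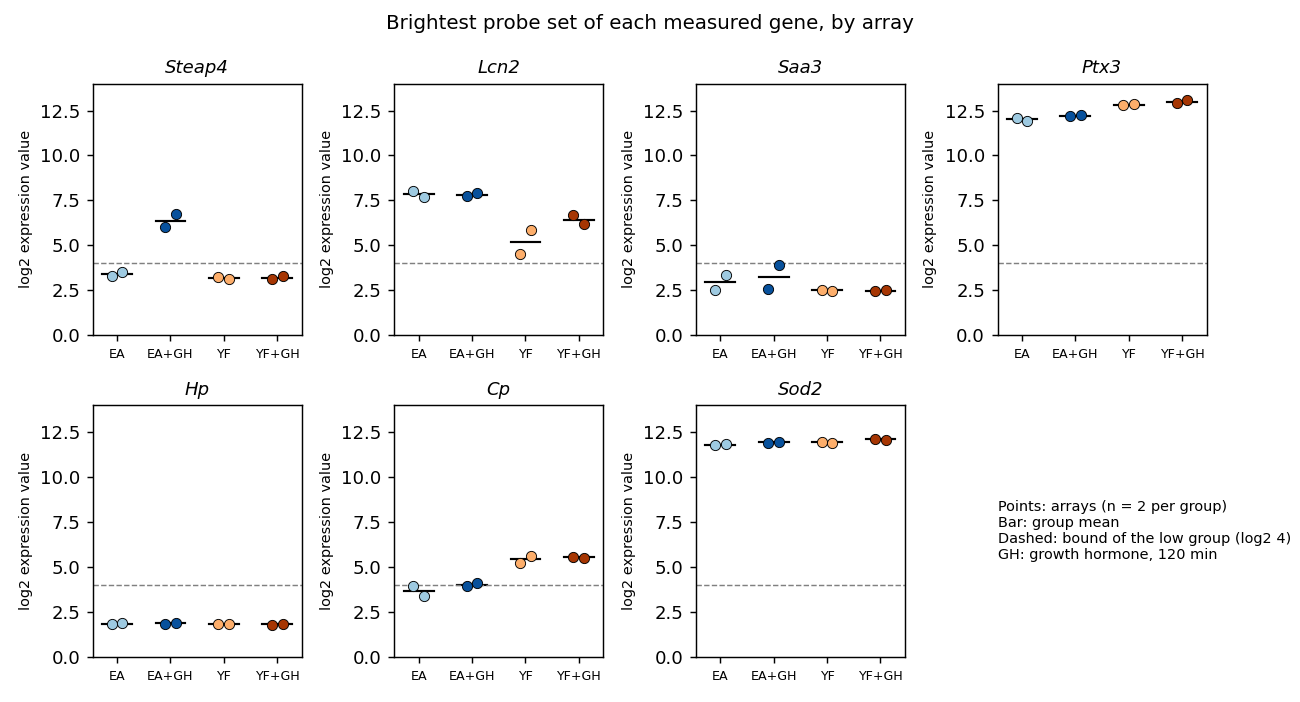
Log2 expression value (vertical axis) of the brightest probe set of each of the 7 measured genes, in the 4 groups (horizontal axis). Points are arrays, 2 per group, bars are group means and the dashed line is the bound of the low values. Steap4 is high on both EA arrays with hormone, Lcn2 is higher in EA than in YF cells, and Ptx3 and Cp are higher in YF cells.

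Steap4, a metalloreductase of the plasma membrane and endosomes that reduces iron and copper, was the 1 gene of the set whose hormone change passed, in EA cells. On its brightest probe set (1460197_a_at) the log2 values of the unstimulated EA arrays were 3.28 and 3.53, and those of the EA arrays with hormone were 6.00 and 6.76. In YF cells they were 3.24 and 3.11 without hormone and 3.12 and 3.28 with it. Both hormone-treated EA arrays thus lay above all 6 others, which were below the bound, and the YF arrays of both treatments overlapped. In limma, a linear model of the 4 group means with moderated variances, hormone raised Steap4 in EA cells by 2.97 on the log2 scale (SE 0.25, 95% interval 2.33 to 3.61, n = 2 per group, adjusted p = 0.046). The unstimulated side lies among the low values, so the size of this fold is uncertain. The change in YF cells was 0.03 (SE 0.25, interval -0.62 to 0.67, adjusted p = 0.94).

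The difference between these responses was 2.94 (SE 0.36, interval 2.03 to 3.85), and it did not pass over all probe sets (limma adjusted p = 0.16). Of 14 alternatives, the gene average included, 2 passed and 12 did not, with differences of 1.51 to 3.32. The 2 were a trend and robust prior (2.94, adjusted p = 0.018) and leaving out EA with hormone replicate 1 (3.32). After hormone the EA cells stood above the YF cells by 3.18 (SE 0.25, interval 2.53 to 3.82, adjusted p = 0.0028), and this call held under each of 14 alternatives computed on the probe set. The hormone call in EA cells was lost under 10 of 14, with adjusted p of 0.058 to 0.27 and changes of 2.59 to 3.35 over all 14. Those 10 were quantile normalization, centring of the arrays, the replicate number as a block, a fit of the EA arrays alone, and leaving out any 1 array of the EA, YF or YF with hormone groups. The other Steap4 probe set lay at 2.01 to 2.09 on every array.

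Lcn2, lipocalin 2, was higher in EA than in YF cells without hormone. Its values were 8.02 and 7.69 in unstimulated EA cells and 7.72 and 7.90 after hormone. In YF cells they were 4.51 and 5.83 without hormone and 6.70 and 6.16 with it. All 4 EA arrays lay above all 4 YF arrays, and the hormone-treated YF arrays lay above the unstimulated ones, whose SD of 0.93 was the largest of the 4 groups. Without hormone, EA exceeded YF by 2.68 (SE 0.46, interval 1.52 to 3.83, limma adjusted p = 0.023). The call was lost without either array of the EA or the EA with hormone group, and in a fit of these 4 arrays alone (adjusted p of 0.062 to 0.11, differences of 2.51 to 2.84). Leaving out YF replicate 1 moved it to 2.02 and leaving out YF replicate 2 to 3.34, and it passed in both. With hormone the difference was 1.38 (SE 0.46, adjusted p = 0.15). It passed without either unstimulated YF array, which are not part of it and bear on the shared spread (adjusted p = 0.040). The hormone response of Lcn2 was -0.04 in EA cells (SE 0.46, interval -1.19 to 1.12, adjusted p = 0.98) and 1.26 in YF cells (SE 0.46, interval 0.11 to 2.41, adjusted p = 0.41). Leaving out YF replicate 1 gave 0.60 in YF cells, and leaving out YF replicate 2 gave 1.92. The 2 responses differed by -1.30 (SE 0.64, interval -2.93 to 0.34, adjusted p = 0.45). Lipocalin 2 is abundant in neutrophils, and the 5 neutrophil markers measured, Elane, Mpo, Cxcr2, Camp and Ngp, had mean values below the bound. The summed markers of macrophages and leukocytes and of epithelium were higher in EA cells, as given further below. Which cells made the Lcn2 RNA was not tested.

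Saa3, a serum amyloid A made outside the liver, stayed among the low values. Its arrays read 2.51 and 3.35 in EA cells, 2.55 and 3.89 in EA cells with hormone, 2.53 and 2.48 in YF cells and 2.47 and 2.49 in YF cells with hormone. The arrays numbered 2 of both EA groups were the 2 highest. No contrast passed, with changes of 0.29 with hormone in EA cells (SE 0.49, interval -0.95 to 1.53, adjusted p = 0.88) and -0.03 in YF cells (SE 0.49, adjusted p = 0.97).

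Hp, haptoglobin, read 1.79 to 1.88 on all 8 arrays, far under the bound. Its changes lay between -0.03, with hormone in YF cells, and 0.04, between EA and YF cells with hormone, each with an SE of 0.04 (limma adjusted p of 0.61 and 0.40). The 6 hepatocyte markers also had mean values under the bound.

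Ptx3, the long pentraxin that binds microbial surfaces and complement, was high in every group and higher in YF cells. Its brightest probe set (1418666_at) read 12.10 and 11.92 in EA cells and 12.17 and 12.28 after hormone, against 12.78 and 12.84 in YF cells and 12.90 and 13.10 after hormone. No EA array reached the lowest YF array. EA minus YF was -0.81 without hormone (SE 0.10, interval -1.05 to -0.56, adjusted p = 0.0080) and -0.78 with it (SE 0.10, interval -1.02 to -0.53, adjusted p = 0.0093). The second of these calls held under all 14 alternatives on the probe set, and the first was lost without YF replicate 2 (adjusted p = 0.051). Hormone changed the brightest probe set by 0.22 in EA and 0.19 in YF cells (SE 0.10 for both, adjusted p = 0.87 and 0.52).

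The dimmer Ptx3 probe set (1456903_at) gave another picture. It read 5.22 and 4.75 in EA cells and 3.31 on both EA arrays with hormone, and 4.72 to 5.59 over the 4 YF arrays. The 2 hormone-treated EA arrays lay below the other 6. Its change with hormone in EA cells was -1.68 (SE 0.32, interval -2.49 to -0.86, adjusted p = 0.33), opposite in sign to the brightest probe set, and EA minus YF with hormone was -1.63 (SE 0.32, adjusted p = 0.039). This call was lost under 7 of 14 alternatives, namely quantile normalization and leaving out any 1 array of the EA, EA with hormone or YF with hormone groups (adjusted p of 0.057 to 0.17). The hormone-treated EA mean lies among the low values. In the gene's average over both probe sets, EA minus YF without hormone was -0.50 and no longer passed (adjusted p = 0.098).

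Cp, ceruloplasmin, the copper-carrying ferroxidase, was higher in YF cells on its 2 brightest probe sets. The brightest (1455393_at) read 3.93 and 3.36 in EA cells, 3.92 and 4.10 with hormone, 5.24 and 5.64 in YF cells and 5.56 and 5.52 with hormone. The EA and YF arrays did not overlap. EA minus YF was -1.79 without hormone (SE 0.22, interval -2.36 to -1.23, adjusted p = 0.0091), from an EA mean of 3.65 among the low values. With hormone it was -1.53 (SE 0.22, interval -2.10 to -0.97, adjusted p = 0.016). The first was lost in a fit of its 4 arrays alone (adjusted p = 0.065). The second was lost without either EA array with hormone or without YF with hormone replicate 1 (0.064 to 0.077), and in the mean of all 8 Cp probe sets (-0.50, adjusted p = 0.087).

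The next Cp probe set (1417494_a_at) read 3.34 and 2.81 in EA cells, 3.93 and 3.98 with hormone, 5.34 and 4.99 in YF cells and 4.79 and 5.73 with hormone. EA minus YF was -2.09 without hormone (SE 0.35, adjusted p = 0.023) and -1.30 with it (SE 0.35, adjusted p = 0.091). The first was lost without any 1 array of the EA, EA with hormone or YF groups (0.058 to 0.11), and the second passed without YF with hormone replicate 1 (-1.77, adjusted p = 0.035), with a trend and robust prior (-1.30, adjusted p = 0.024) and over probe sets above the median level (-1.30, adjusted p = 0.036). The third (1417495_x_at), of a class whose probes can bind other transcripts, had all group means below the bound and gave -1.18 and -1.09 (adjusted p = 0.10 and 0.13). It passed without hormone with the trend and in a fit of the 4 arrays alone (adjusted p = 0.036 and 0.011), and with hormone with the trend (adjusted p = 0.049). Over probe sets above the median level it also passed without hormone (adjusted p = 0.043). That filter used the mean of all 8 arrays, which the probe set met through its YF arrays, so this pass adds no support. Its group means were 2.41 and 2.80 in EA cells, without and with hormone, and 3.58 and 3.89 in YF cells. The other 5 lay at 2.24 to 3.84 on all arrays, and their EA minus YF values ran from -0.78 to -0.02 without hormone and from -0.34 to 0.16 with it, with no call. Of these 5, 1448735_at, high on YF replicate 1 alone (3.84), passed without YF replicate 2 (-1.48 without hormone, adjusted p = 0.0027, against -0.78 with all arrays). Hormone changed the brightest Cp probe set by 0.36 in EA cells (SE 0.22, adjusted p = 0.87) and 0.10 in YF cells (SE 0.22, adjusted p = 0.77).

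**Figure D2:**
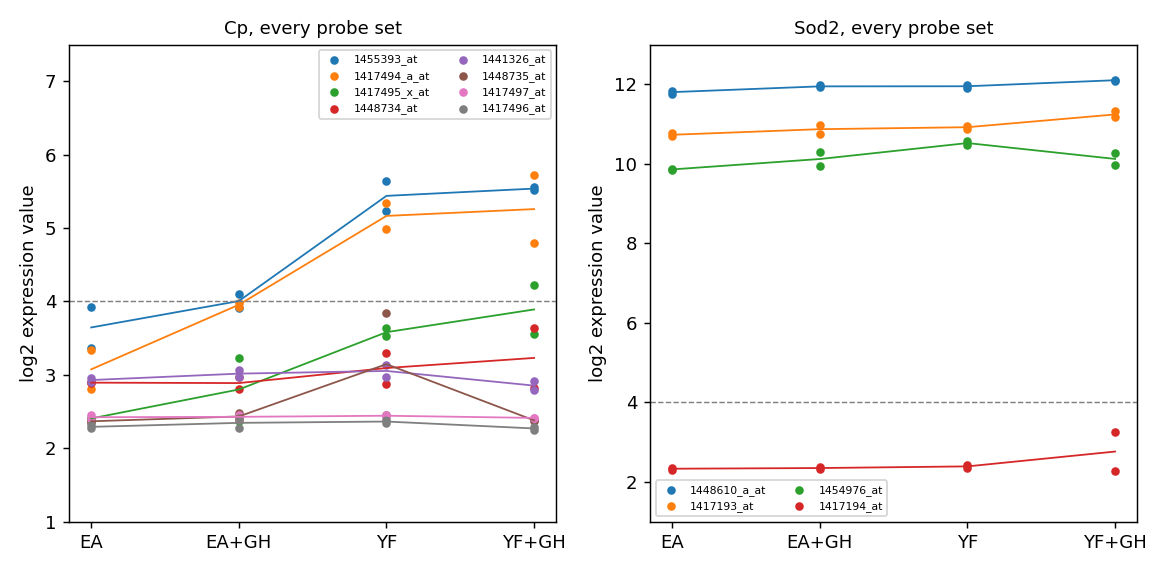
Log2 expression values (vertical axis) of all 8 Cp probe sets (left) and all 4 Sod2 probe sets (right) in the 4 groups (horizontal axis), with points for arrays, lines joining group means and a dashed line at the bound of the low values. The vertical axes of the panels differ and start above 0. The upper Cp probe sets are higher in YF cells, while the Sod2 probe sets at 9.85 and above move by less than 1 unit.

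Sod2, the mitochondrial superoxide dismutase and an NF-kB target, was high in all groups and varied little. The brightest probe set (1448610_a_at) read 11.77 and 11.84 in EA cells, 11.93 and 11.97 with hormone, 11.99 and 11.92 in YF cells and 12.12 and 12.09 with hormone. Within each mutant the treated arrays lay above the untreated ones. The changes were 0.14 in EA cells (SE 0.04, interval 0.03 to 0.26, adjusted p = 0.66) and 0.15 in YF cells (SE 0.04, interval 0.04 to 0.27, adjusted p = 0.33). Averaged over both mutants the change was 0.15 (SE 0.03, adjusted p = 0.26), so these small shifts did not pass.

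The other Sod2 probe sets did not move alike. The next brightest (1417193_at) changed by 0.14 in EA and 0.32 in YF cells with hormone (SE 0.09 for both, adjusted p = 0.87 and 0.33). The third (1454976_at) read 9.88 and 9.85 in EA cells, 9.96 and 10.29 with hormone, 10.48 and 10.57 in YF cells and 9.98 and 10.27 with hormone. On it EA minus YF without hormone was -0.66 (SE 0.14, interval -1.03 to -0.30, adjusted p = 0.049). That call was lost with quantile normalization and without any 1 EA or YF array (0.077 to 0.20). The same contrast was -0.15 and -0.19 on the 2 brighter probe sets (adjusted p = 0.12 and 0.37). Hormone gave 0.26 in EA and -0.40 in YF cells on the third (SE 0.14 for both, adjusted p = 0.87 and 0.41). The fourth (1417194_at) had group means under the bound. It was high on YF with hormone replicate 2 alone (3.24), and read 2.28 to 2.43 on the other arrays. Its EA minus YF value with hormone was -0.41 (adjusted p = 0.36). Without YF with hormone replicate 1 the value was -0.90, from a fit in which that high array stood alone for its group.

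Counted over the 19 probe sets, hormone in EA cells gave 1 call (5.26%), Steap4, against 0.135% of all probe sets tested. At an unadjusted p under 0.05 it gave 3 (2 higher and 1 lower, or 15.8%) against 5.62%. Hormone in YF cells gave 0 calls in limma, against 0.180% of all, and 5 at an unadjusted p under 0.05 (3 higher and 2 lower, 26.3%) against 11.4%. The difference of the responses gave 0 calls in limma, against 0.0200%, and 4 at the unadjusted threshold (3 higher and 1 lower, 21.1%) against 9.74%. Hormone averaged over both mutants gave 0 calls in limma, against 0.211%, and 5 unadjusted (4 higher and 1 lower, 26.3%) against 7.85%. With hormone in YF cells the low Cp probe set 1448735_at moved to -1.46 without YF replicate 2. The low Sod2 probe set 1417194_at moved to 0.85 without YF with hormone replicate 1. Each of these fits leaves alone in its group the array on which that probe set was high. On average over the mutants, Steap4 passed without EA with hormone replicate 1 (1.69, adjusted p = 0.039, against an adjusted p of 0.085 with all arrays), and the low Cp probe set without YF replicate 2 (-0.70, adjusted p = 0.044). Median changes over the 19 were 0.09 in EA and 0.03 in YF cells, beside 0.03 and -0.04 over all probe sets.

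**Figure D3:**
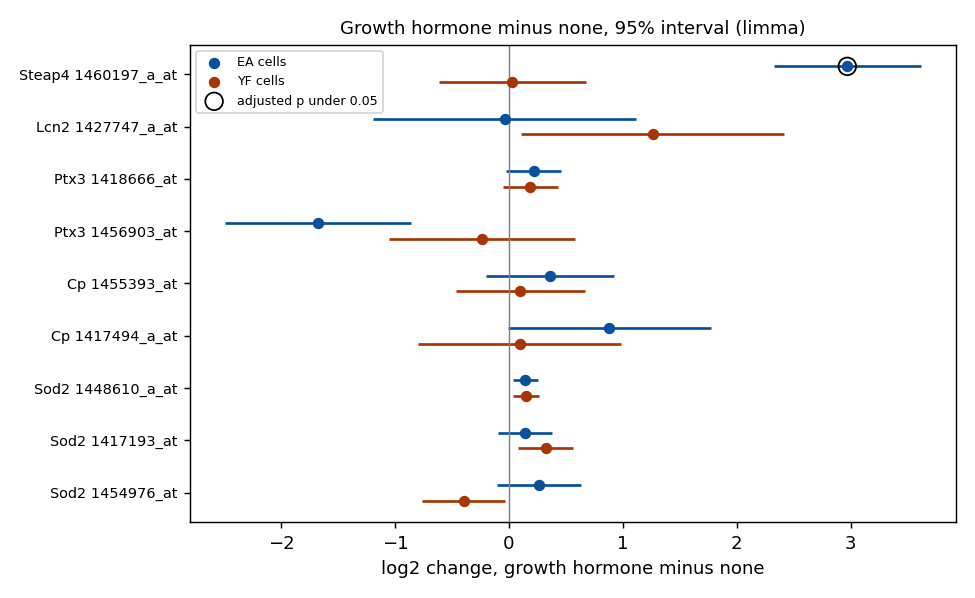
Log2 change with growth hormone (horizontal axis, hormone minus none) of the 9 probe sets with a group mean above the bound (vertical axis), in EA cells (blue) and YF cells (brown). Points are limma estimates, lines are 95% intervals and a ring marks an adjusted p under 0.05. Steap4 in EA cells, at 2.97, has the 1 ring, and the 2 Ptx3 probe sets lie on opposite sides of 0 in EA cells.

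EA against YF cells without hormone gave 5 calls among the 19 probe sets (26.3%), in 4 genes, against 10.8% of all probe sets. Lcn2 was higher in EA cells, and Ptx3, 2 probe sets of Cp and 1 of Sod2 were lower. At an unadjusted p under 0.05 there were 7 (1 higher and 6 lower, 36.8%) against 21.2%. With hormone there were 4 calls (21.1%), in 3 genes, against 10.2%, with Steap4 higher and 2 probe sets of Ptx3 and 1 of Cp lower in EA cells. The unadjusted count was 9 (2 higher and 7 lower, 47.4%) against 22.3%. Without hormone the count was 2 when either EA array was left out, and 3 when any 1 array of the EA with hormone or YF groups was. The 3 without YF replicate 2 include the low Cp probe set 1448735_at, which is not among the 5. With hormone the count was 2 when either EA array with hormone was left out. The median difference over the 19 was -0.15 without hormone, beside -0.02 over all probe sets, and -0.00 with it, beside 0.06. Probe sets of 1 gene are not independent, and the hormone and mutant contrasts share arrays. The fibroblasts were measured in bulk, so fewer cells making an RNA and less RNA per cell cannot be told apart.

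Of the markers of other cells, those of macrophages and leukocytes and those of epithelium moved with the mutants. The summed log2 level of the 8 macrophage and leukocyte markers was 33.4 to 34.8 over the EA arrays of both treatments. Over the YF arrays it was 29.4 to 30.6. All of these markers but Cd68 and Csf1r (Ptprc, Adgre1, Itgam, Fcgr3, Tyrobp and Laptm5) had mean values under the bound. The summed level of the 6 epithelial markers was 21.6 to 22.5 in EA and 15.6 to 17.1 in YF arrays. All of these but Krt19 (Epcam, Cdh1, Krt8, Krt18 and Cldn4) had mean values under the bound. The summed level of the 8 fibroblast markers was 92.7 to 94.1 in EA and 102 to 104 in YF arrays. The part of these differences in the contrasts of Lcn2, Ptx3, Cp and Sod2 was not tested.

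**Figure D4:**
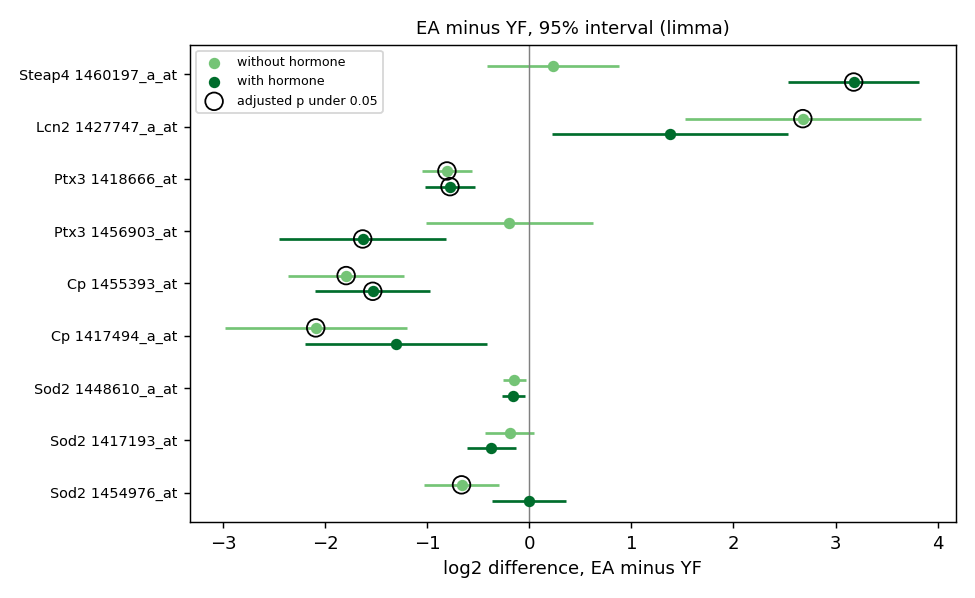
Log2 difference between EA and YF cells (horizontal axis, EA minus YF) of the same 9 probe sets (vertical axis), without hormone (light green) and with hormone (dark green). Points are limma estimates, lines are 95% intervals and a ring marks an adjusted p under 0.05. Lcn2 and Steap4 lie to the right, at 2.68 without and 3.18 with hormone, and the rings of Ptx3, Cp and Sod2 lie to the left of 0.

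The genes with the most similar profile over the 8 arrays were sought among 10778 genes with a mean of at least 4, for members whose group means span at least 1 unit. Those nearest to Steap4 were Socs2, a growth hormone signalling inhibitor and STAT5 target (Pearson r = 0.977), Gata2 (0.960) and Cdk6 (0.957). Socs2 group means were 6.46 in EA cells, 11.31 with hormone, and 6.67 and 6.37 in YF cells. Nearest to Lcn2 were Tamm41 (0.977), Cd9 (0.976) and Tctn1 (0.975), and nearest to Cp were Efna3 (0.994), 2210408K08Rik (0.991) and Wnt5b (0.990). The 8 arrays form 4 groups, so these values describe mainly the group means.

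Around the 8 genes, 5 lists of related genes were described, with 102 genes in all, of which 91 were measured, each by its brightest probe set. The lists were written with earlier results of these data known. The shares given beside them are over all probe sets, of which 55.0% have a mean under the bound. In the lists, 18 of 19 regulators and 16 of 18 iron, copper and superoxide genes had a mean above it. So did 9 of 18 complement genes and 5 of 18 secreted and surface genes. Lists and shares thus differ in level too, and no share matched for level was computed. Of the 5, the factors and receptors that drive the acute-phase response had the largest median change with hormone. Of 19 measured, Tlr2, the receptor for bacterial lipoproteins, passed higher in each mutant and none passed lower, where 0.135% of all probe sets passed in EA and 0.180% in YF cells. Tlr2 changed by 1.64 in EA cells (SE 0.11, adjusted p = 0.028) and 1.55 in YF cells (SE 0.11, adjusted p = 0.027). Averaged over both mutants, Tlr2 (1.59, SE 0.08, adjusted p = 0.0090) and Nfkbiz, the NF-kB cofactor needed for Lcn2 induction (1.73, SE 0.16, adjusted p = 0.042), passed, where 0.211% of all probe sets did. At the unadjusted threshold 14 of 19 were higher and 1 lower, beside 7.85% of all probe sets. The list's median change was 0.31 in EA and 0.48 in YF cells, beside 0.03 and -0.04 over all probe sets. Relb, Nfkb2, Cebpb and Cebpd had average changes of 1.73, 1.15, 0.78 and 0.56 (adjusted p of 0.079 to 0.34), which did not pass, and these 4 were named after their values were seen. The group means of Il6, the main inducer of the response, were 2.58 to 2.76, under the bound.

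The other 4 lists, with 72 measured genes, gave 0 calls for hormone in limma in either mutant. At the unadjusted threshold they gave 3 higher and 3 lower in EA cells, where 5.62% of all probe sets met it, and 7 higher and 4 lower in YF cells, where 11.4% did. Of 18 liver-type acute-phase genes measured, such as the fibrinogen and orosomucoid genes, 1 had a mean above the bound. In this list 0 passed in limma between EA and YF cells without hormone, where 10.8% of all probe sets did. At the unadjusted threshold 1 was higher and 0 lower, beside 21.2% of all probe sets.

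Between the mutants without hormone, the list of iron, copper and superoxide handling gave 7 higher and 2 lower in EA cells of 18, where 10.8% of all probe sets passed. Sod3, the secreted superoxide dismutase, was lower in EA cells (-4.03, SE 0.38, adjusted p = 0.0043). Steap3, the ferrireductase of the transferrin cycle (1.48, SE 0.15), Mt2, a metallothionein (1.22, SE 0.18), and Slc40a1, the iron exporter ferroportin (1.08, SE 0.17), were higher, with adjusted p of 0.0052 to 0.020. The median of the list was 0.11, beside -0.02 over all probe sets.

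Against the same 10.8% of all probe sets, among secreted and surface innate defence proteins 3 were higher and 1 lower in EA cells of 18, namely Chil1 (3.91, SE 0.25), Nptx1 (2.36, SE 0.22, from the low values in YF cells) and Lyz1 (1.64, SE 0.30), against Il1rn, the interleukin-1 receptor antagonist (-2.13, SE 0.11). Among complement genes 2 were higher and 2 lower of 18, beside that 10.8%. The proteases of the first complement component, C1ra (1.75, SE 0.10) and C1s1 (1.52, SE 0.18), were higher, and Cd55 (-1.69, SE 0.24), which protects cells from complement, and Masp1 (-0.33, SE 0.06) were lower. The regulators gave 5 higher and 3 lower of 19, also beside 10.8%, with Tlr4 (-2.12, SE 0.20), Il1r1 (1.53, SE 0.22), Cebpa (1.25, SE 0.24) and Cebpd (-0.80, SE 0.13) the largest. The adjusted p of these 12 ran from 0.0007 to 0.036. The medians of the 3 lists were -0.01, -0.01 and 0.51. With hormone, where 10.2% of all probe sets passed, the calls were 6 higher and 2 lower for iron, copper and superoxide handling, 2 and 1 for secreted and surface proteins, 2 and 2 for complement, and 3 and 1 for the regulators. The difference of Sod3 was then -4.01 and that of Chil1 4.00, close to those without hormone.

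**Figure D5:**
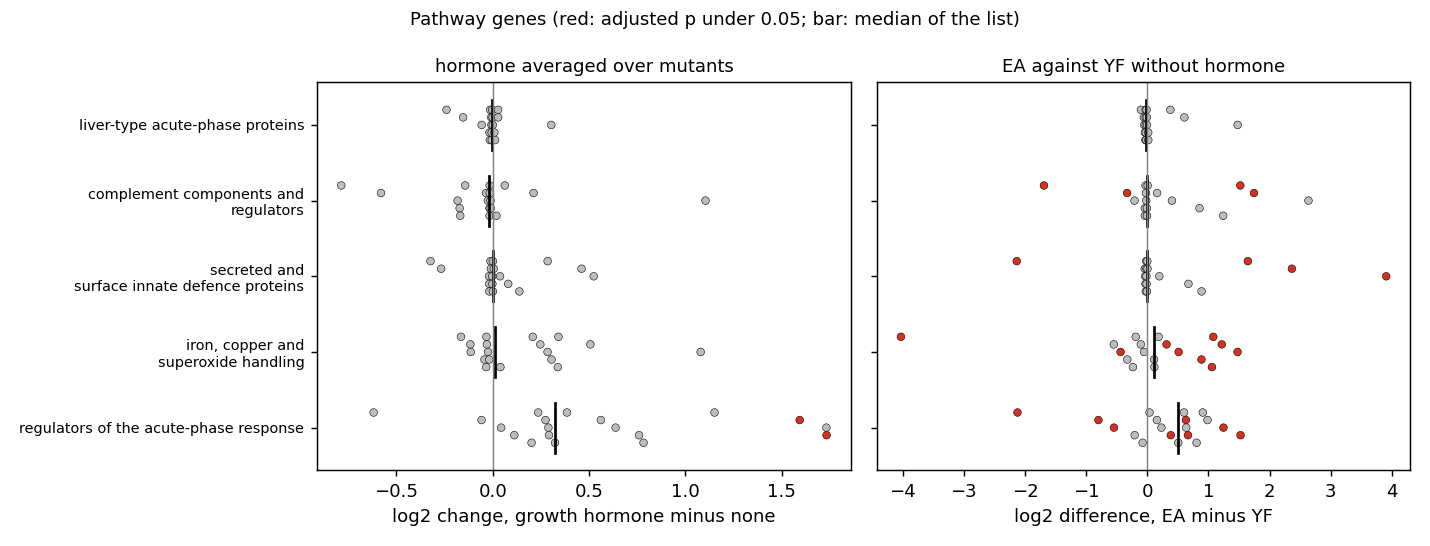
Log2 change of the genes of 5 related lists (vertical axis), for growth hormone averaged over both mutants (left) and for EA minus YF without hormone (right). Each point is a gene's brightest probe set, red points have an adjusted p under 0.05 and bars are list medians. The red points on the left are Tlr2 and Nfkbiz, and the bar of the regulators lies at 0.32 there.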

How the data were processed

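Biotin-labelled RNA of 8 samples was measured on 1-colour Affymetrix arrays. The deposited table holds log2 expression values per probe set. The submitters' processing notes name GCOS, the scanner software, and RMA, a probe-level summary, with versions and settings not given in the sources used here. No further scaling was applied: values were used as the authors deposited them. Array medians were 2.85 to 2.94, which lie among the low values and so do not show whether higher values share a scale. The upper quartiles of the arrays were 9.04 to 9.14. Control probe sets (64) were left out, which leaves 45037, and symbols were those of the platform annotation.

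Tests used limma 3.58.1 (R 4.3.3): lmFit and eBayes on 4 group means over 8 arrays, with 4 residual and 1.26 prior degrees of freedom, two-sided, Benjamini-Hochberg over 45037 probe sets, threshold 0.05. The code was tested on simulated data. Changes are hormone minus none, and EA minus YF. A gene is represented by its brightest probe set. By rule the named genes were all 8 members and at most 4 passing genes of each list by size of change. Outside that rule, Relb, Nfkb2, Cebpb, Cebpd and Il6 were named for hormone without passing. Members, lists and tests were chosen with earlier results of these data known. Alternatives were quantile normalization, median centring, a trend with a robust prior, the replicate number as a block, the arrays of the comparison alone, probe sets above the median level, gene means, and leaving out each array. Where that leaves 1 array in a group, it is assumed to vary like the others. The number of arrays limits the precision.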

Additional observations from a re-analysis of the deposited data

How the results depend on the processing

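Counts of members passing in each comparison changed as follows, with the others staying within 1.5 times. For hormone in EA cells the count fell from 1 to 0 with quantile normalization, with median centring, under the replicate block, and when only the arrays of the comparison were fitted. It was 0 to 1 over the fits that leave out 1 array. The difference of the responses and the average hormone effect each rose from 0 to 1 with a trend and robust prior, as did the average with probe sets above the median level. In averages over a gene's probe sets, 2 genes passed between EA and YF cells without hormone and 2 with hormone. Without 1 array, the counts were 0 to 1 for hormone in YF cells, the difference and the average, 2 to 5 for EA against YF without hormone and 2 to 5 with hormone.

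Whether the replicate numbers pair the samples was not settled, since what they share is not given in the sources used here. Deviations of same-numbered arrays correlated at -0.303, between EA without and YF with hormone, to 0.367, between EA and YF both with hormone. Among the 19 probe sets, the replicate block gave 5 calls for EA against YF without hormone, 4 with hormone and 0 in the other comparisons. The block with the EA numbers crossed, chosen after seeing the data, gave the same counts, 0 for hormone in EA cells included. Over all probe sets the crossed block gave 5899 EA against YF calls without hormone and 5883 with it. The numbered block gave 4196 and 3852, and the fit with no block 4847 and 4579. For hormone the crossed block gave 50 calls in EA and 131 in YF cells, against 15 and 21 numbered and 61 and 81 with no block.

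Reversals of direction were all of changes that had not passed, and in every one the alternative did not pass either. With quantile normalization these were Lcn2 (0.0082) and Hp (-0.0043) for hormone in EA cells, Steap4 (-0.018), Saa3 (0.017) and Cp (-0.0021) in YF cells, and Hp (-0.0020) and Sod2 (0.020) for the difference. With centring they were Hp (-0.027) in EA cells, and Ptx3 (-0.023) and Hp (-0.013) for the difference. In gene averages they were Ptx3 in EA cells (-0.73), in YF cells (-0.025), for the difference (-0.70) and on average (-0.38), Steap4 (-0.0051) and Cp (-0.056) in YF cells, and Sod2 (0.029) for the difference. Without 1 array, hormone in EA cells gave -0.20 to 0.13 for Lcn2, -0.38 to 0.96 for Saa3 and -0.0092 to 0.031 for Hp. In YF cells it gave -0.053 to 0.11 for Steap4 and -0.10 to 0.30 for Cp. The difference gave -0.35 to 0.99 for Saa3, -0.071 to 0.13 for Ptx3, -0.022 to 0.54 for Cp and -0.043 to 0.029 for Sod2. EA against YF without hormone gave -0.0069 to 0.014 for Hp, and the average gave -0.20 to 0.47 for Saa3 and -0.022 to 0.0036 for Hp. The cause was not tested. Low values limit Saa3, Hp, the low side of Steap4 and most Cp probe sets.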
